A study of Mus musculus with 12 samples.

Results

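The genes described here are 9 genes of heart muscle, Myh6, Actc1, Myl7, Myl4, Sln, Tnnt2, Tnni3, Ryr2 and Nkx2-5, as measured in whole mouse lung. They are the rows of the deposited value table whose platform gene symbol is one of these 9 names, and each name was found once among the 24704 genes with a symbol. The 9 names were chosen by measured values in part, because log2 levels and differences of all 4 groups of these same arrays were known when they were picked. Their levels and differences are therefore given as a description, with no claim of a test, and numbers that passed a threshold are read only as counts.

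RNA of whole lung was measured on 12 Affymetrix arrays in 4 groups of 3. Every mouse carried floxed alleles of Nfat5, a transcription factor of the response to high salt. Control mice (Nfat5fl/fl) received the solvent miglyol, and knockout mice (Nfat5(EC)-/-) received 1 mg tamoxifen a day for 5 days to delete the gene in endothelial cells. Mice of each genotype then breathed normal air (normoxia) or spent 21 days in hypoxia, a design that asks how chronic low oxygen changes the lung and whether endothelial Nfat5 alters it. Mice were males and females, treated at an age of 10 to 12 weeks and left to recover for 2 to 3 weeks. The labels do not name the Cre line that limits the deletion to endothelium. Only knockout mice had tamoxifen, so loss of Nfat5 and tamoxifen cannot be told apart. Lungs had been rinsed free of blood with cold Ringer solution. The design text counts 4 mice, against 3 arrays per group here. It also says that preparations with contaminating tissue, for which it gives thymus as an example, and preparations with an inadequate response to hypoxia had been left out. Replicates were taken to be separate mice because the design text counts mice.

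Cardiac muscle is not foreign to the mouse lung. In rodents, sleeves of atrial-type heart muscle surround the pulmonary veins and follow them far into the lung, and they beat with the left atrium. In heart muscle cells, myosin of the thick filament pulls on actin of the thin filament, troponin makes that pull depend on calcium, and ryanodine receptors release the calcium from the sarcoplasmic reticulum. Myl7, Myl4 and Sln are genes of atrial muscle, whereas Myl2, Myl3 and Myh7 are used as markers of the ventricle or of slow muscle.

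Values are log2 expression made by the authors with RMA, a method that brings all arrays to 1 distribution. A difference of 1 on this scale is a doubling of signal. Levels are compared between arrays for 1 gene and never between genes, because probes differ in brightness. The table holds no detection calls. Myh6 and Myh7, and Actc1, Acta1 and Acta2, are near-identical families, and the probe sequences were not used here, so signal shared within each family was not tested.

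Of the 9 genes, 8 matched an entry of the RefSeq promoter table (GRCm38.p6) and Sln did not. The 120 bases before the annotated start site are shown for 4 of them, all on the minus strand. Of these, 3 moved together over the arrays and the fourth, Nkx2-5, did not. Tnnt2, Tnni3, Myl4 and Ryr2, which are not shown, moved with the 3 as well. The windows are Myl7 at chr11:5898783-5898902, Actc1 at chr2:114052876-114052995, Myh6 at chr14:54966608-54966727 and Nkx2-5 at chr17:26841566-26841685. Capitals mark matches to the motifs that follow.
Myl7: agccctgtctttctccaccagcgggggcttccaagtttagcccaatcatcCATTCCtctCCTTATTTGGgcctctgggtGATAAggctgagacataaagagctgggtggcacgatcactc
Actc1: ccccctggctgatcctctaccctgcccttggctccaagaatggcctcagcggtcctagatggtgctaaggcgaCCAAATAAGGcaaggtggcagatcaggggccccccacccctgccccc
Myh6: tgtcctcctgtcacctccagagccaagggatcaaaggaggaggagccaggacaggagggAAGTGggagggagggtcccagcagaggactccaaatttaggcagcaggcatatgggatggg
Nkx2-5: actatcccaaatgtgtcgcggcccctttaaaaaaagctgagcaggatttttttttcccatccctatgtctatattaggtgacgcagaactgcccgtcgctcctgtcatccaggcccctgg

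Both strands of the 250 bases before each start site were searched for 6 motifs of heart and muscle promoters. The CArG box, the site of serum response factor, was found 61 bases before the start of Myl7 and 47 bases before that of Actc1, and in no other of the 8 genes. It was present in 1.47% of all 32851 promoter windows. The core of an NKX2-5 site (AAGTG) was found in Myl7, Myl4 and Myh6, and in 40.7% of all windows. The MCAT motif of TEAD factors (CATTCC) was found in Tnnt2, Myl7 and Myh6, and in 12.6% of all windows. A GATA motif (GATAA) was found in Tnnt2 and Myl7, and in 22.6% of all windows. The MEF2 box and the letters TATAAA, which can lie inside it, were found in 0 of the 8 genes, and in 2.92% and 12.4% of all windows. Tnni3 and Ryr2, which moved with the other muscle genes, had no match to any of the 6 motifs, and neither had Nkx2-5. The motifs thus do not separate Nkx2-5 from the genes that moved together. A match is a description of letters and not a site of binding.

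Before the differences between groups, the arrays that stand apart need naming. The deviation of each gene from its own mean over the 12 arrays was averaged over the 8 genes other than Nkx2-5. Knockout normoxia 2 lay 1.68 above the mean, with the single genes between 1.15 and 2.47. Knockout normoxia 4 followed at 0.70 and control normoxia 2 at 0.58, and in these 3 arrays all 8 genes were above their means. The lowest were knockout hypoxia 2 at -1.02 and knockout hypoxia 4 at -0.66, with all 8 genes below their means in both. The 7 other arrays lay between -0.33 and -0.09. The high arrays thus come from both genotypes, and the third knockout normoxia array, at -0.21, was not among them. Xist, an RNA of female cells, was named after its values were seen. It was 8.15 to 10.4 in control normoxia 1, knockout normoxia 1, control hypoxia 1 and 2, and knockout hypoxia 3 and 4. In the other arrays it was 3.25 to 3.51. They were the 3 with high heart genes, control normoxia 4, control hypoxia 4 and knockout hypoxia 2, the array with the lowest heart genes. Sex is thus uneven between normoxia and hypoxia, and only the setting with Y-linked genes, given below, takes it into account.

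**Figure D1:**
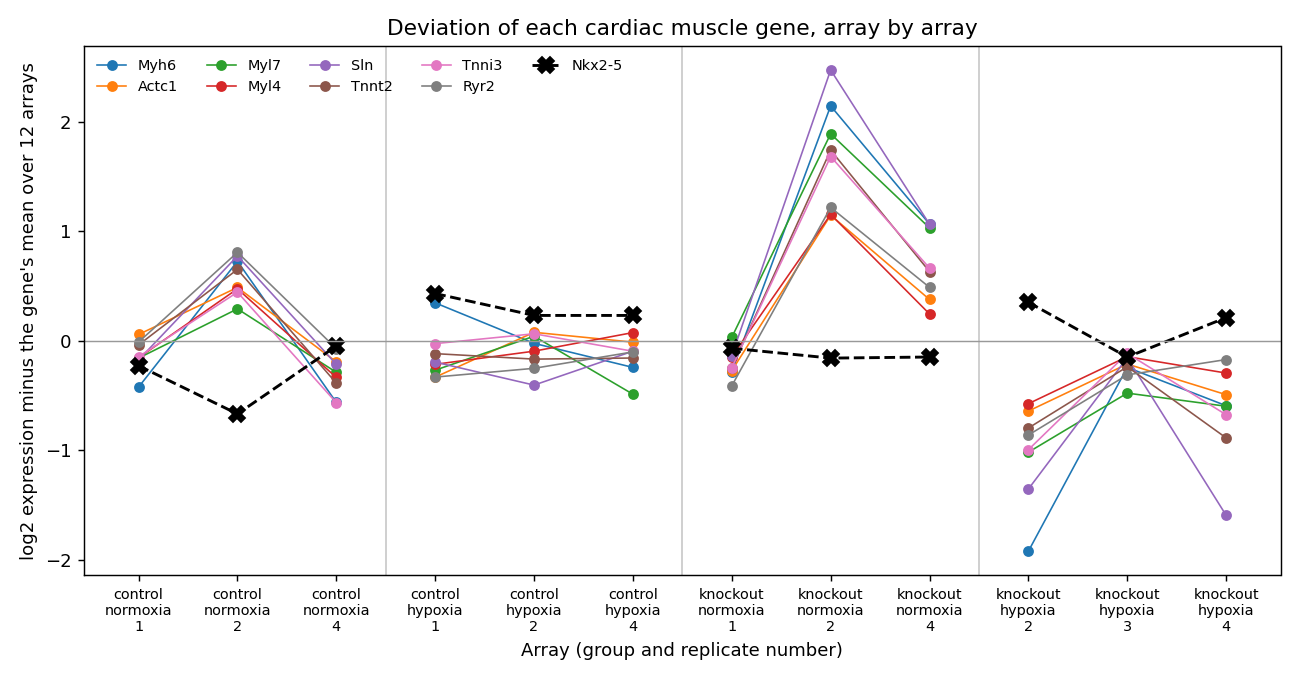
Deviation of each cardiac muscle gene from its own mean over the 12 arrays (log2, vertical axis) in each array (horizontal axis, by group and replicate number; grey lines separate groups and coloured lines join the values of 1 gene). In knockout normoxia 2 the 8 genes other than Nkx2-5 lie between 1.15 and 2.47 above their means, while Nkx2-5 (black crosses) lies at -0.16.

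Knockout normoxia 2 was also the array with the highest Ucp1, the uncoupling protein of brown fat, at 9.31. Ucp1 was 7.66 in control hypoxia 1 and between 3.34 and 4.28 in the 10 others. High Ucp1 went with high heart genes only in knockout normoxia 2. Control hypoxia 1 had a mean deviation of the 8 heart genes of -0.14, and knockout normoxia 4, with high heart genes, had Ucp1 at 3.97. The mean of 8 brown fat genes was 4.85 in knockout normoxia 4. It was 4.44 to 4.73 in the arrays other than that one, knockout normoxia 2 and control hypoxia 1. Defining lung markers were high in every array, with the alveolar type 2 cell gene Sftpc from 13.36 to 13.58, the type 1 cell gene Ager from 12.29 to 12.62 and the endothelial gene Pecam1 from 11.44 to 11.77. Some other lung markers varied more and were lower with hypoxia in control lungs. Among them were the type 1 cell gene Akap5 (10.31 to 11.45 over the arrays), the endothelial gene Kdr and the cilium gene Dnah12 (5.25 to 8.27). The type 1 cell gene Aqp5 was instead higher there, by 0.30. In that comparison 2 of 5 type 1 cell genes, 1 of 6 endothelial genes and 0 of 5 airway genes had a difference above 0. The recombinase gene Rag1, a marker of thymus, stayed between 3.29 and 3.62. Nfat5 itself was 8.92 to 9.39 in control and 8.59 to 8.80 in knockout lungs in normoxia, which did not overlap, and 8.16 to 8.61 and 8.17 to 8.46 in hypoxia, which did. Knockout minus control was -0.44 ± 0.15 (SE) in normoxia (limma adjusted p = 0.62), where 11.7% of all genes had groups without overlap, and -0.08 ± 0.15 in hypoxia. Hypoxia minus normoxia in control lungs was larger, at -0.68 ± 0.15 (limma adjusted p = 0.0157). The rest of the lung keeps its Nfat5 RNA, so its level is a limited check of the labels.

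Myh6 encodes the alpha heavy chain of cardiac myosin, the motor of the thick filament in atria and in the adult mouse heart. Its level was 7.07, 8.22 and 6.93 in control normoxia (replicates 1, 2 and 4), 7.84, 7.47 and 7.25 in control hypoxia (1, 2 and 4), 7.21, 9.64 and 8.56 in knockout normoxia (1, 2 and 4) and 5.57, 7.25 and 6.90 in knockout hypoxia (2, 3 and 4). Knockout normoxia 2 was highest and knockout hypoxia 2 lowest, 4.07 apart, and every pair of groups next to each other in the order of means overlapped. Of the variation of Myh6 over the 12 arrays, 51.3% lay within groups.

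Myl7 encodes the regulatory light chain and Myl4 the essential light chain of atrial myosin. In the same order of arrays, Myl7 was 6.86, 7.31 and 6.73 in control normoxia, 6.75, 7.06 and 6.53 in control hypoxia, 7.05, 8.91 and 8.05 in knockout normoxia and 6.0, 6.54 and 6.42 in knockout hypoxia. All 3 knockout arrays in normoxia were above all 3 in hypoxia, whereas both control groups had means in between and overlapped each other. Myl7 had the smallest part of its variation within groups, 32.7%, against 35.0% to 61.2% for the 8 others. Myl4 was 6.76, 7.39 and 6.58 in control normoxia, 6.70, 6.82 and 6.99 in control hypoxia, 6.77, 8.07 and 7.16 in knockout normoxia and 6.34, 6.77 and 6.62 in knockout hypoxia. Its groups overlapped throughout, with knockout normoxia 2 and control normoxia 2 at the top, and its whole range was 1.73.

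On the thin filament, Actc1 encodes cardiac alpha actin, Tnnt2 the troponin subunit that binds tropomyosin and Tnni3 the inhibitory troponin subunit. Actc1 was 9.48, 9.91 and 9.23 in control normoxia, 9.09, 9.50 and 9.41 in control hypoxia, 9.15, 10.57 and 9.80 in knockout normoxia and 8.78, 9.21 and 8.93 in knockout hypoxia. Tnnt2 was 9.12, 9.81 and 8.77 in control normoxia, 9.04, 8.99 and 9.0 in control hypoxia, 8.91, 10.90 and 9.79 in knockout normoxia and 8.36, 8.92 and 8.27 in knockout hypoxia. Control hypoxia was the tightest group of Tnnt2, with an SD of 0.03 against 1.00 in knockout normoxia, and it lay just above knockout hypoxia without overlap. Tnni3 was 7.08, 7.67 and 6.66 in control normoxia, 7.20, 7.29 and 7.13 in control hypoxia, 6.98, 8.91 and 7.89 in knockout normoxia and 6.23, 7.11 and 6.55 in knockout hypoxia. As with Tnnt2, the 3 hypoxic knockout arrays lay below the 3 hypoxic controls, the nearest being 7.11 and 7.13, and the high arrays were again knockout normoxia 2, knockout normoxia 4 and control normoxia 2.

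Sln encodes sarcolipin, a small inhibitor of the calcium pump in atrial and skeletal muscle, and Ryr2 the cardiac ryanodine receptor. Sln was 6.81, 7.76 and 6.77 in control normoxia, 6.79, 6.58 and 6.89 in control hypoxia, 6.85, 9.46 and 8.05 in knockout normoxia and 5.63, 6.83 and 5.39 in knockout hypoxia. Its range of 4.06 was about that of Myh6, and knockout hypoxia was split, with replicate 3 at the level of the hypoxic controls and replicates 2 and 4 below every other array. Ryr2 was 5.37, 6.19 and 5.31 in control normoxia, 5.05, 5.13 and 5.28 in control hypoxia, 4.97, 6.60 and 5.87 in knockout normoxia and 4.52, 5.07 and 5.21 in knockout hypoxia. Ryr2 was the only one of the 8 whose control arrays did not overlap between normoxia and hypoxia, and there the nearest arrays were 5.31 and 5.28.

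Nkx2-5 encodes a homeobox transcription factor that the heart needs to form. Its level was 4.85, 4.41 and 5.03 in control normoxia, 5.51, 5.31 and 5.31 in control hypoxia, 5.01, 4.92 and 4.93 in knockout normoxia and 5.43, 4.93 and 5.29 in knockout hypoxia. Its highest array was control hypoxia 1 and its lowest was control normoxia 2, which was among the 3 highest arrays of all 8 other genes. In knockout normoxia 2 it was 0.16 below its mean. Its whole range, 1.09, was the narrowest of the 9.

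**Figure D2:**
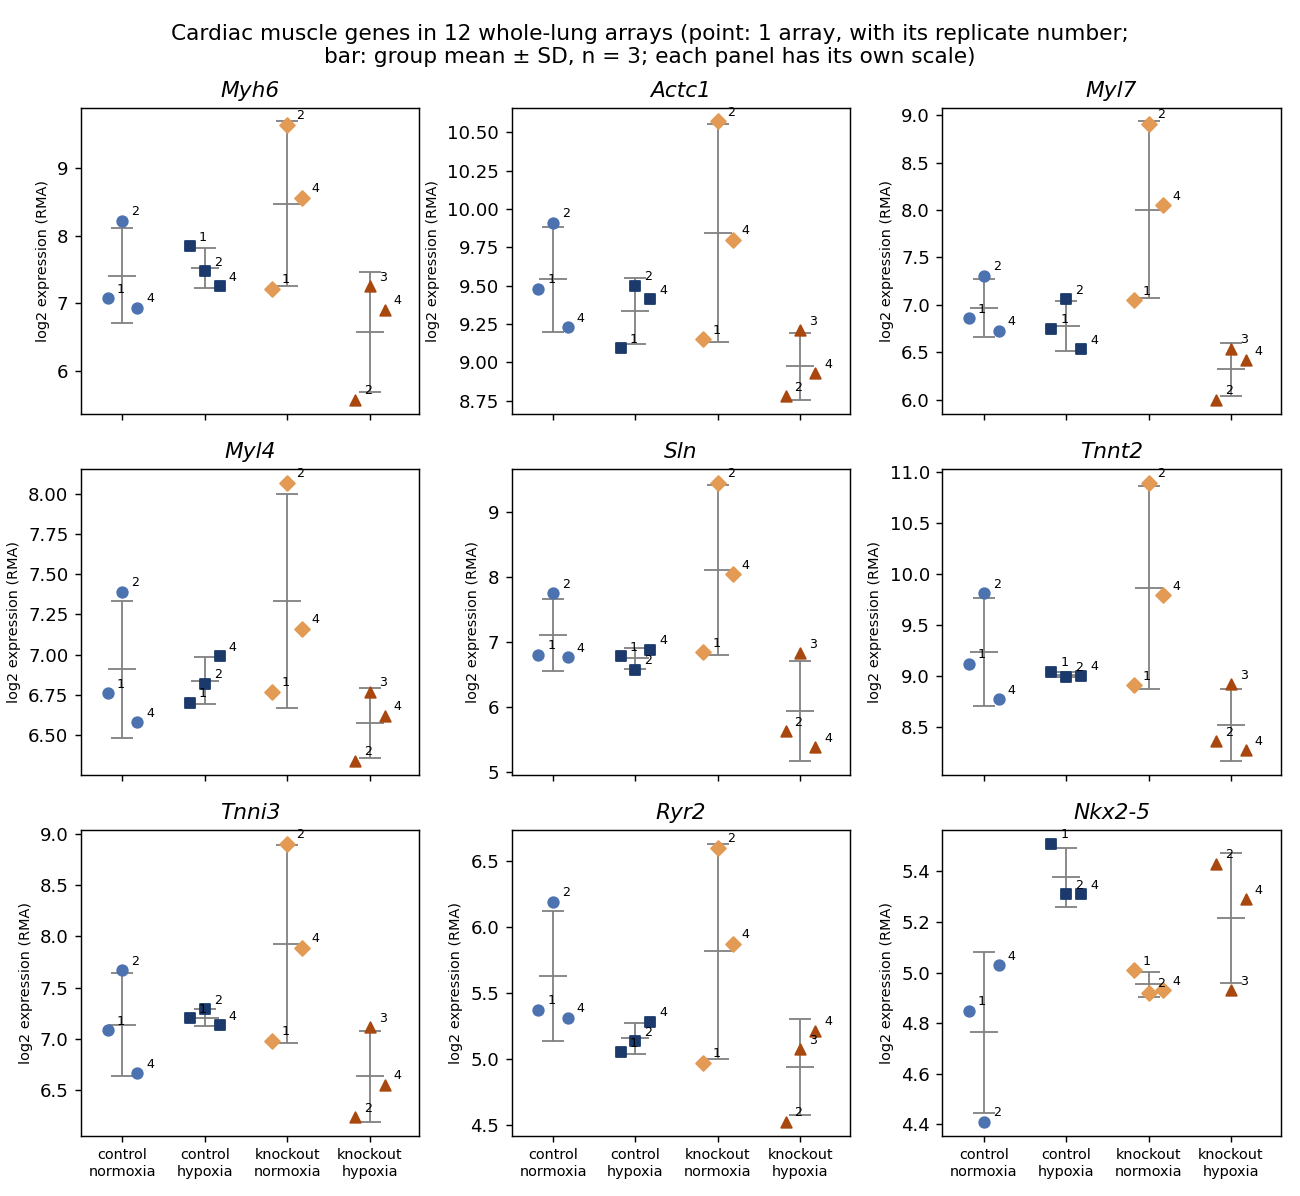
log2 expression (vertical axis, with its own scale in each panel) of the 9 cardiac muscle genes in 4 groups of 3 arrays (horizontal axis). Points are arrays with their replicate numbers, and bars are the group mean ± SD. Knockout normoxia 2 is the highest array in 8 panels, and Nkx2-5 is highest in control hypoxia 1.

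The order of the group means was the same at both ends for the 8 genes other than Nkx2-5, with knockout normoxia highest and knockout hypoxia lowest. Between them lay control normoxia and control hypoxia, with control hypoxia the higher for Myh6 and Tnni3 and control normoxia the higher for the 6 others. Of the 24 steps between neighbours in these orders, 22 had overlapping arrays. The exceptions were Tnnt2 between control hypoxia and knockout hypoxia, and Ryr2 between control normoxia and control hypoxia. Nkx2-5 ran from control hypoxia (5.38 ± 0.11, SD, n = 3) through knockout hypoxia (5.21 ± 0.26) and knockout normoxia (4.95 ± 0.05) to control normoxia (4.76 ± 0.32), with overlap at each step.

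The 8 genes moved together from array to array. Over the 12 arrays the Pearson correlation of the 28 pairs among them ran from 0.873 to 0.982, with a median of 0.932. Without knockout normoxia 2 it ran from 0.751 to 0.962 over 11 arrays, and on deviations from group means from 0.835 to 0.979. Nkx2-5 went the other way, with r between -0.669 and -0.447 against the 8 genes over 12 arrays, and between -0.762 and -0.46 without knockout normoxia 2. These correlations describe 12 arrays that were normalized together, and the genes of 1 array share 1 piece of lung. In tissue RNA, fewer heart muscle cells in a piece and less of these RNAs per cell cannot be told apart.

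In control lungs, 21 days of hypoxia left 8 of the 9 genes without a call, and Nkx2-5 was higher. A gene was called where its limma p, adjusted over all 24704 genes by the Benjamini-Hochberg method, was under 0.05. Nkx2-5 rose by 0.61 ± 0.16 (SE; 95% interval 0.27 to 0.96; limma adjusted p = 0.0293), with all 3 hypoxic arrays above all 3 normoxic ones. That made 1 of 9 genes called, where 11.5% of all genes were called, and 2 of 9 without overlap, Nkx2-5 higher and Ryr2 lower, where 27.7% of all genes had none. Myh6 differed by 0.11 ± 0.58, Tnni3 by 0.07 ± 0.40, Myl4 by -0.07 ± 0.29, Myl7 by -0.19 ± 0.36, Actc1 by -0.21 ± 0.29, Tnnt2 by -0.22 ± 0.41, Sln by -0.36 ± 0.55 and Ryr2 by -0.47 ± 0.35. The 95% intervals of these 8 all include 0, and that of Myh6 runs from -1.15 to 1.37, so differences of more than 2-fold in either direction lie within it. The median of the 9 was -0.19, against 0.01 over all genes. It was 0.07 without control normoxia 2 and 0.02 with the mean of the Y-linked genes as a covariate, and Myl4 turned to 0.04 when arrays were scaled on housekeeping genes.

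The call of Nkx2-5 was narrow. Its adjusted p ran from 0.013 to 0.0978 over 15 other settings, and 7 of them kept the call. The difference was 0.44 without control normoxia 2 (adjusted p = 0.0978), 0.55 without control hypoxia 1 and knockout normoxia 2 (adjusted p = 0.0842) and 0.60 with the Y-linked covariate (adjusted p = 0.0627). RNAs that stay in the nucleus were lower in the same hypoxic arrays, with a mean of 8 such RNAs between 5.63 and 5.80 in control hypoxia and between 6.19 and 6.66 in control normoxia. These 8 leave out Xist and Tsix, 2 RNAs of the list of 10. With all 10 the means overlapped, at 5.30 to 5.81 in control hypoxia and 5.62 to 6.57 in control normoxia. Their part in the difference was not tested.

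In knockout lungs the 8 other genes were all lower in hypoxia than in normoxia, and none was called. Sln differed by -2.17 ± 0.55 (limma adjusted p = 0.102), Myh6 by -1.90 ± 0.58 (0.167), Myl7 by -1.68 ± 0.36 (0.0521), Tnnt2 by -1.35 ± 0.41 (0.164) and Tnni3 by -1.30 ± 0.40 (0.178). Ryr2 differed by -0.88 ± 0.35 (adjusted p = 0.313), Actc1 by -0.87 ± 0.29 (0.22) and Myl4 by -0.75 ± 0.29 (0.286), while Nkx2-5 differed by 0.26 ± 0.16 (0.543). All 8 lower genes had an unadjusted limma p under 0.05. The share of all genes under that threshold was not counted, here or in the comparisons below. The 8 genes also moved together, so this is only a count. By adjusted p 0 of the 9 were called, where 1.14% of all genes were. Groups did not overlap for 2 of 9, Myl7 and Sln, and for 19.8% of all genes. The median of the 9 was -1.30, and 0.00 over all genes.

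These differences rest in part on knockout normoxia 2. Without it Sln was -1.50 ± 0.46, Myh6 -1.31 ± 0.54, Myl7 -1.23 ± 0.29, Tnnt2 -0.83 ± 0.32 and Tnni3 -0.81 ± 0.33. Actc1 was -0.50 ± 0.23, Ryr2 -0.49 ± 0.31 and Myl4 -0.39 ± 0.23, which are the largest relative shifts, Nkx2-5 was 0.25 ± 0.18, and the median of the 9 was -0.81. The number of all genes called in this comparison was 71 without that array and 282 with it. Myl7 was called in 4 of 15 other settings, with an adjusted p between 0.0139 and 0.184 over them. Without knockout normoxia 1, the array of its group with ordinary levels of the heart genes, 3 of the 9 were called, Myl7 at -2.16 (adjusted p = 0.0139), Sln at -2.80 (adjusted p = 0.0374) and Tnnt2 at -1.82 (adjusted p = 0.0497). Over the 15 settings the adjusted p of Sln ran from 0.0374 to 0.32 and that of Tnnt2 from 0.0497 to 0.48.

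In normoxia all 9 genes were higher in knockout than in control lungs, and none was called. Myh6 differed by 1.06 ± 0.58, Myl7 by 1.03 ± 0.36 and Sln by 1.01 ± 0.55, and the 6 others by 0.19 to 0.79 (limma adjusted p between 0.621 and 0.933 for the 9). Of the 9, 1 had an unadjusted p under 0.05, Myl7. The count was 0 of 9 called where 0.00405% of all genes were, and 0 of 9 without overlap where 11.7% of all genes had none. Without knockout normoxia 2, Myl7 was 0.58, Myh6 0.48, Sln 0.34, Tnni3 0.30, Nkx2-5 0.20, Tnnt2 0.11 and Myl4 0.06, while Actc1 turned to -0.06 and Ryr2 to -0.21. The median went from 0.63 to 0.20.

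In hypoxia all 9 were lower in knockout than in control lungs, by -0.95 ± 0.58 for Myh6, -0.80 ± 0.55 for Sln, -0.58 ± 0.40 for Tnni3, -0.49 ± 0.41 for Tnnt2 and between -0.46 and -0.16 for the others. By limma 0 of 9 were called, where 0% of all genes were, and 0 of 9 had an unadjusted p under 0.05. Tnnt2 and Tnni3, 2 of 9, had groups without overlap, where 9.74% of all genes had none. Each of these 4 comparisons shares a group of arrays with 2 of the others, so the signs are not independent of each other. With the replicate number as a block, Nkx2-5 turned to 0.02.

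The interaction, which is the hypoxia difference in knockout minus that in control lungs, was below 0 for all 9 genes. It was -2.01 ± 0.81 for Myh6, -1.81 ± 0.78 for Sln, -1.49 ± 0.51 for Myl7, -1.37 ± 0.57 for Tnni3 and -1.12 ± 0.57 for Tnnt2, and between -0.68 and -0.35 for the others. By limma 0 of 9 were called, where 0.00405% of all genes were, with the smallest adjusted p, 0.574, for Myl7. Unadjusted limma p-values were under 0.05 for 4 of 9, again with no share of all genes to set beside that count. Without knockout normoxia 2 it was -1.42 for Myh6, -1.14 for Sln, -1.04 for Myl7, -0.88 for Tnni3 and -0.61 for Tnnt2. It was -0.37 for Nkx2-5, -0.32 for Myl4, -0.30 for Actc1 and -0.02 for Ryr2, so that the values of Ryr2, Actc1, Myl4, Tnnt2, Tnni3 and Sln moved by more than 1.5 times with 1 array.

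**Figure D3:**
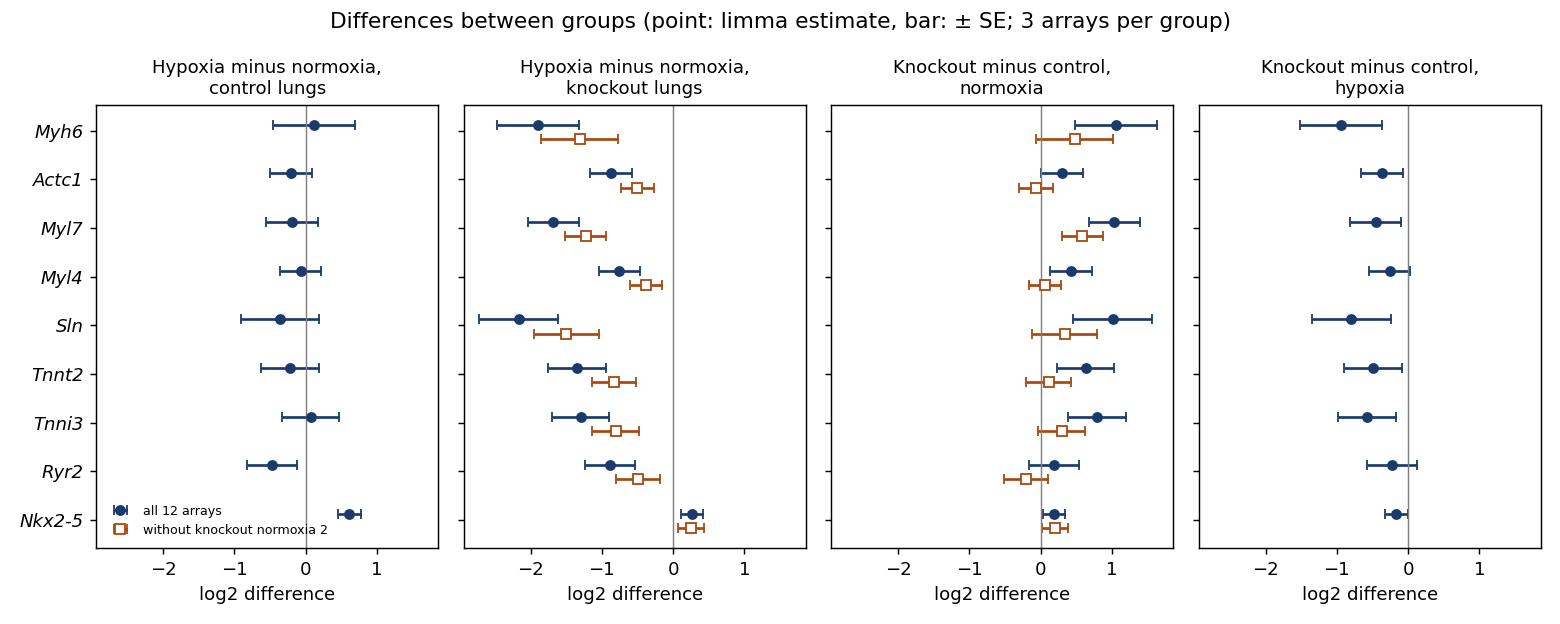
log2 difference (horizontal axis) of each cardiac muscle gene (vertical axis) in 4 comparisons, as the limma estimate ± SE from all 12 arrays (filled circles) and, where the array enters the comparison, without knockout normoxia 2 (open squares). In knockout lungs the open squares for Sln and Myh6 lie at -1.50 and -1.31, closer to 0 than the filled circles at -2.17 and -1.90.

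The nearest genes outside the 9 were picked by how they tracked them. By Pearson correlation with the mean of the 9 over the 12 arrays, the 10 nearest of 24695 other genes were Csrp3 (0.985), Mb (0.976), Pln (0.966), Tbx20 (0.965), Myom2 (0.965), Mybphl (0.961), Atp2a2 (0.959), Tnnc1 (0.954), Myoz2 (0.94) and Actn2 (0.934). Csrp3 encodes a protein of the Z disc, Mb the oxygen store myoglobin and Pln phospholamban, which restrains the calcium pump encoded by Atp2a2. Tbx20 is a heart transcription factor, Tnnc1 the calcium-binding troponin subunit, and Myom2, Mybphl, Myoz2 and Actn2 encode proteins of the M band, thick filament and Z disc. Without knockout normoxia 2 the 10 values ran from 0.846 to 0.964 over 11 arrays. Over all 24695 genes the median was -0.012, and 82 genes, 0.332%, were above 0.8, most of which stand in none of the lists used here and were not classed.

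Csrp3 shows the pattern array by array, at 5.47, 6.29 and 5.60 in control normoxia, 5.58, 5.69 and 5.88 in control hypoxia, 5.70, 7.62 and 6.54 in knockout normoxia and 4.94, 5.52 and 5.32 in knockout hypoxia. Pln was 6.01, 6.75 and 5.57, then 5.50, 5.54 and 5.85, then 5.27, 8.04 and 6.38, and last 4.60, 5.71 and 5.04 in the same groups. Both had the same 3 high arrays as the 8 genes and were lowest in knockout hypoxia 2. When deviations from group means were used instead, the 10 nearest genes were Pln (0.984), Csrp3 (0.974), Esr1 (0.971), Art3 (0.968), Ttn (0.964), Srl (0.963), Actn2 (0.963), Mybphl (0.955), Mb (0.953) and Myoz2 (0.953). Esr1, the estrogen receptor gene, and Art3 leaned on 1 array by the first measure, r over the arrays. It was 0.747 for Esr1 and 0.817 for Art3 over 12 arrays, and 0.403 and 0.599 without knockout normoxia 2. The correlation of deviations was not recomputed without that array.

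Other genes of striated muscle were taken from lists by role, with the 9 removed. Of 19 measured genes of the sarcomere and Z disc, 12 had r above 0.8 with the mean of the 9, and 16 were highest in knockout normoxia 2, as were 7.7% of all genes. Titin, Ttn, the molecular spring of the sarcomere, was 6.70 in that array and 4.16 to 6.12 in the others. Of 10 measured genes of muscle energy metabolism, 6 had r above 0.8 and 10 were highest in that array, among them Mb at 9.03 against 6.30 to 7.85 elsewhere. Actn2 (r = 0.934) stands in both of these lists and counts in each. Of 14 genes of calcium handling and excitation, 4 had r above 0.8, and Atp2a2, which many lung cells also express, went from 9.92 to 11.03. Of 12 cardiac transcription factors, only Tbx20 and Tbx18 had r above 0.8, the second named after its value was seen. Gata4 stayed between 4.27 and 4.85 and Tbx5, which lung mesenchyme expresses too, between 8.32 and 9.14.

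Markers of atrial and of ventricular muscle were read against the 9 as well. Of 6 measured genes of atrial and pulmonary vein muscle outside the 9, Kcnj3 (0.886), Kcnj5 (0.854) and Nppa (0.846) had r above 0.8. Kcnj3 and Kcnj5, named after their values were seen, encode the potassium channel through which acetylcholine slows the atria, and both stayed at or below 4.19. Nppa, which encodes atrial natriuretic peptide, was 8.03, 7.96 and 8.44 in control normoxia, 7.14, 7.62 and 6.86 in control hypoxia, 8.05, 11.94 and 9.41 in knockout normoxia and 7.27, 6.60 and 7.03 in knockout hypoxia. It shared the peak in knockout normoxia 2 and the second place of knockout normoxia 4, but not the high level of control normoxia 2, and its r was 0.573 without knockout normoxia 2. Bmp10, a growth factor of the right atrium, was between 3.18 and 4.08 with its highest value in knockout normoxia 2. Its r was 0.789, and 0.305 without that array, where Kcnj3 and Kcnj5 had 0.774 and 0.752. Gja5 had r = 0.362 over the 12 arrays and Kcna5, also named after its value was seen, -0.124. Of 6 ventricular genes 0 had r above 0.8, but the natriuretic peptide gene Nppb came just below it (0.798, and 0.384 without knockout normoxia 2), at 4.37 in that array and 3.35 to 3.69 in the others. Lrrc10 had r = 0.534 and Irx4, named after its value was seen, 0.549. Myl2, the ventricular regulatory light chain, was 3.48 to 4.02 (r = 0.292), Myl3, the ventricular essential light chain, 2.64 to 3.30 (r = -0.235) and Myh7, the beta myosin heavy chain, 5.59 to 6.45 (r = -0.139). Myl2, Myl3, Kcnj3 and Kcnj5 lay below the median value in every array, and whether they gave signal above background was not tested. The r of the 2 lists overlapped, and no difference between the lists was tested.

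The mean of the fast skeletal muscle genes varied little between groups, at levels below the median value of each array. Whether these genes gave signal above background was not tested. The mean of 15 fast skeletal muscle genes was 3.62 to 3.81 in control normoxia, 3.73 to 3.87 in control hypoxia, 3.73 to 3.80 in knockout normoxia and 3.72 to 3.79 in knockout hypoxia, and 0 of the 15 had r above 0.8. Mylpf, the fast light chain, stayed between 2.80 and 3.48, and Acta1, skeletal actin, between 4.71 and 5.56. Acta1 was called higher with hypoxia in control lungs, as given below. Of 12 smooth muscle genes 0 had r above 0.8, and Acta2, smooth muscle actin, was 10.36 to 10.82. Of 8 brown fat genes 1 had r above 0.8, Cox7a1, which stands in the list of muscle energy genes as well, and Ucp1 had r = 0.674 over 12 arrays and 0.173 without knockout normoxia 2. The mean of the brown fat genes was 4.68 to 6.77 in knockout normoxia, 4.67 to 5.88 in control hypoxia, 4.44 to 4.64 in control normoxia and 4.49 to 4.63 in knockout hypoxia. The part of brown fat in the values of knockout normoxia 2 was not tested.

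**Figure D4:**
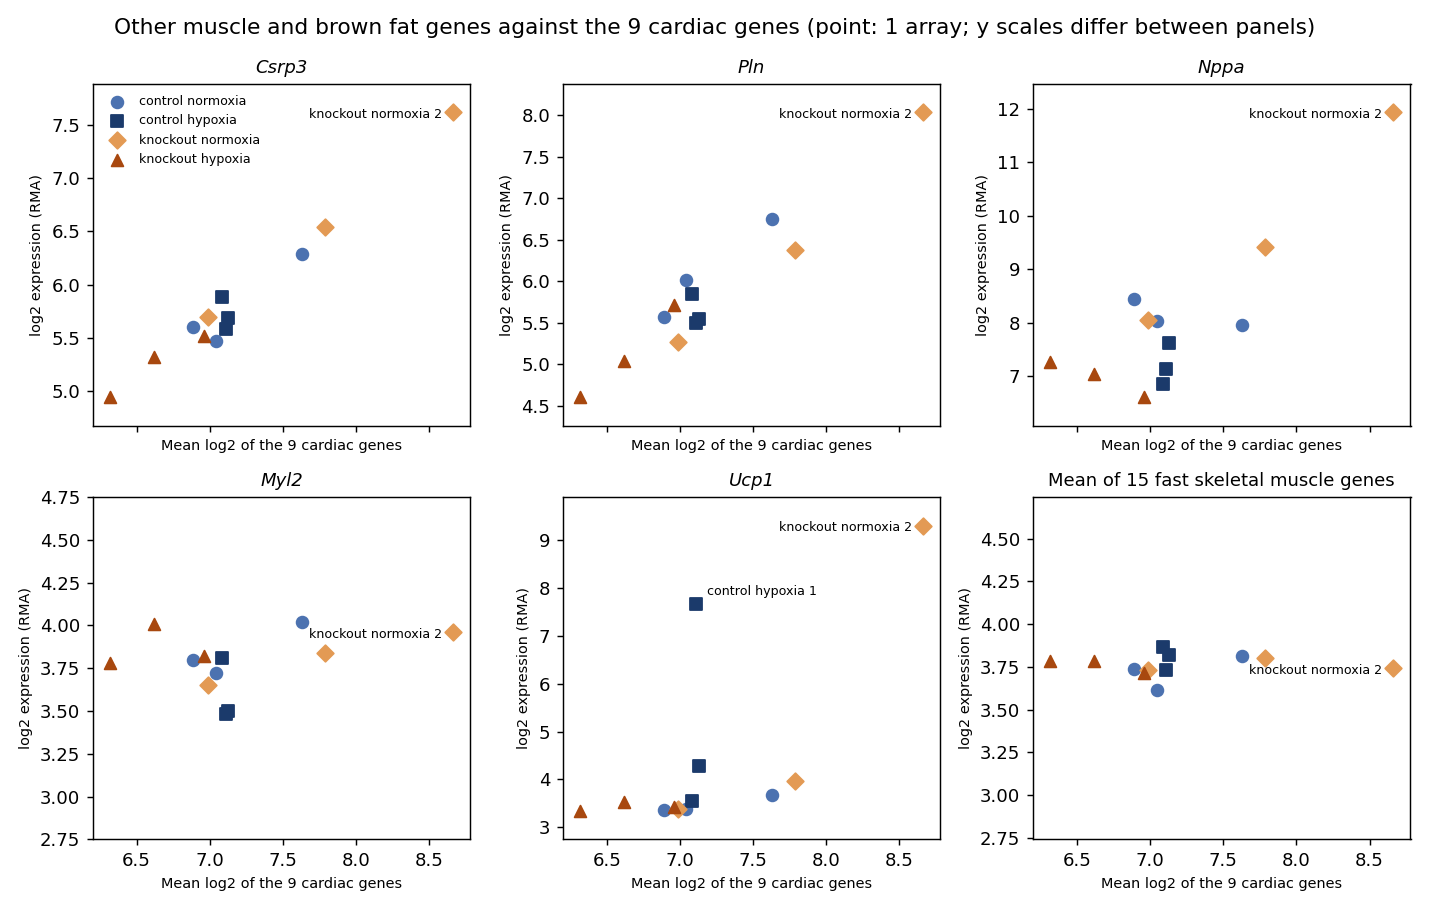
log2 expression of 5 genes and the mean of 15 fast skeletal muscle genes (vertical axes, scales differ between panels) against the mean log2 expression of the 9 cardiac muscle genes (horizontal axis), with 1 point for each of 12 arrays, coloured by group. Csrp3 (r = 0.985) and Pln (0.966) rise with the cardiac mean, Myl2 (0.292) varies little, and Ucp1 is high in knockout normoxia 2 and in control hypoxia 1, which has an ordinary cardiac mean.

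Over the list genes the comparisons gave few calls of muscle genes. In control lungs hypoxia changed 1 sarcomere gene upward and 1 downward among 19, the small heat shock protein Cryab by 0.35 (limma adjusted p = 0.0351) and the thin filament gene Nebl by -0.97 (0.0316). Over the 12 arrays their r with the 9 was -0.498 and 0.54, and on deviations from group means -0.358 and 0.91. Among 12 cardiac transcription factors, Myocd, the cofactor of serum response factor, rose by 0.37 (adjusted p = 0.0471) and Mef2a fell by 0.39 (0.0292). Acta1 rose by 0.46 (0.041), the only call among 15 fast skeletal genes, and 5 of 12 smooth muscle genes rose, such as Lmod1 by 0.94 and Des by 0.71. The lists of atrial, ventricular, calcium handling and energy genes had 0 calls, where 11.5% of all genes were called.

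In knockout lungs hypoxia called 1 of the 6 atrial genes and 0 of the other muscle lists, where 1.14% of all genes were called. It was Gja5, a gap junction gene of atria and of arterial endothelium, which fell by 0.71 ± 0.15 (limma adjusted p = 0.0491). Its r with the 9 was 0.362, and the endothelial genes Kdr and Tek fell as well, by 0.60 and 0.51. The median difference was -0.63 over the 10 energy genes, with 10 of 10 below 0, -0.62 over the 19 sarcomere genes and -0.17 over the 14 calcium handling genes, -0.05 over the 6 ventricular and 0.01 over the 15 fast skeletal genes. Over the 8 brown fat genes, of which Cox7a1 and Cox8b also stand among the energy genes, it was -0.69. All 10 energy genes, 16 of 19 sarcomere genes and 6 of 8 brown fat genes were highest in knockout normoxia 2. Actn2 counts among both the energy and the sarcomere genes. These medians were not recomputed without that array. Nppa differed by -2.83 ± 0.70 (adjusted p = 0.0899). In normoxia the median of knockout minus control was 0.59 over the energy genes, 0.33 over the sarcomere genes and 0.64 over the brown fat genes, with 0 calls in any list, and 0 lists had a call in knockout minus control in hypoxia or in the interaction.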

How the data were processed

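Per the submitters' processing notes the authors made the values with RMA, whose version, annotation and filters were not given in the sources used here. Deposited values are log2 expression of 25428 probe sets on 12 arrays, from 2.41 to 13.68, with a median of 4.55 on each array, and the sorted arrays were identical. A single symbol named 24705 probe sets and none named 723; the brighter probe set of a repeated symbol was kept, giving 24704 genes. Of these, 24673 matched a GRCm38 gene table by Entrez number, which was used for names only.

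All genes were fitted as 4 group means with limma 3.58.1 in R 4.3.3 (8 residual degrees of freedom, two-sided tests, no trend or filter), for 5 comparisons. The fit was tested on simulated data. Replicate numbers were not used as a block, because deviations of arrays with the same number correlated between -0.248 and 0.277, with 4 of 15 pairs over 0.1.

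The 9 genes and the 17 gene lists were chosen with earlier results of these data known. Genes were named by a written rule (the 9, for each list its 3 brightest and up to 3 called genes, a few allowed markers, and the 10 nearest genes by each correlation), with exceptions marked. List correlations used the mean of the 9. The lists not described in the report had 0 genes with r above 0.8 (epicardium and mesothelium, cartilage, thymus, both alveolar cell types, endothelium, airway, nuclear RNAs). Alternatives were an intensity trend, robust moderation, array weights, the replicate block, only brighter genes, scaling on 5 housekeeping genes, the mean of 3 Y-linked genes as covariate, only the 6 arrays compared, and leaving out arrays. The number of arrays limits the precision.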

Additional observations from a re-analysis of the deposited data

How the results depend on the processing

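The number of the 9 genes called for hypoxia in control lungs went from 1 to 0 with the Y-linked covariate, in a fit of only the 6 arrays compared, and without both arrays with high Ucp1, a setting added after the data were seen. When single arrays were left out, it stayed 1 only without control normoxia 4 and was 0 in the 5 other fits of this kind. The number called for hypoxia in knockout lungs went from 0 to 1, Myl7, with an intensity trend (adjusted p = 0.0281), with only the 12352 brighter genes (0.0297) and with housekeeping scaling (0.0453), and was 0 to 3 when single arrays were left out. Housekeeping scaling moved the median of all genes by 0.11 for hypoxia in control lungs and by 0.10 in knockout lungs. In the 3 other comparisons the count was 0 in every setting run.

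The median of the 9 genes stayed below 0 for hypoxia in knockout lungs (-1.77 to -0.81), knockout in hypoxia (-0.75 to -0.30) and the interaction (-1.60 to -0.59), and above 0 for knockout in normoxia (0.20 to 1.11). For hypoxia in control lungs it ran from -0.31 to 0.07. With the replicate block the median was -1.71 for hypoxia in knockout lungs and -0.75 for knockout in hypoxia, and the block changed no call of the 9. A gene that differs less than its spread among 3 mice is not resolved by these arrays. Groups of 3 are too small to test single arrays as outliers.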
